A study of Mus musculus with 8 samples.

Results

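The 9 genes described here build, bind or cut the cardiac jelly, the extracellular matrix that lies between the myocardium and the endocardium of the early heart tube. They are Ugdh and Has2 for hyaluronan synthesis, Vcan and Hapln1 for the proteoglycan and link protein that bind it, Cd44 and Hyal2 for its binding at the cell surface and its breakdown, and Adamts1, Adamts5 and Adamts9 for the cutting of versican. They were chosen by name and function from the 49315 genes of the count tables, with earlier results of these data known. All 9 had enough counts to be tested, among 17163 genes tested. The values come from RNA-seq of whole mouse hearts at embryonic day 9.5, with 4 wild-type libraries and 4 libraries homozygous for Tbx20EH1Mut, a germline change of neighbouring amino acids in the EH1 domain of Tbx20 that was made by CRISPR/Cas9 editing to disrupt the binding of TLE corepressors. Each library holds poly-A RNA of 3 pooled hearts per the study's methods, the sex of the embryos is not given for each library, and every cell of a mutant embryo carries the allele, so that an effect in one cell type cannot be told apart from an effect in another.

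Hyaluronan is a long sugar polymer that is extruded through the plasma membrane by the synthase Has2 from UDP-sugars, of which Ugdh makes UDP-glucuronic acid. Versican, encoded by Vcan, binds hyaluronan through its N-terminal domain, and the link protein encoded by Hapln1 holds the complex together, so that the swollen matrix keeps its volume. In the embryonic heart this matrix fills the space in which endocardial cushions and trabeculae form, and proteases of the ADAMTS family later cut versican as the jelly is cleared.

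The libraries held between 33359322 and 49523086 counts. Levels are counts of a gene divided by the scaled total of its library, given in CPM, the usual scale that sets libraries of different depth side by side, and a call needed a Benjamini-Hochberg adjusted p no higher than 0.05. Tbx20 itself ran from 353 to 379.6 CPM in wild-type libraries and from 215 to 317 CPM in Tbx20EH1Mut libraries, without overlap (log2 fold change −0.46 ± 0.133 SE; adjusted p = 0.0273 in the quasi-likelihood test of edgeR with Benjamini-Hochberg adjustment). Its call was lost with upper-quartile scaling (log2 fold change −0.38) and without wild-type replicate 3 or 4 or mutant replicate 1 or 2 (−0.46 to −0.36). The amino acid change lies in the protein and gene-level counts do not read it. All 7 cardiomyocyte markers passed the filter on low counts, and their summed level overlapped between the genotypes (21744 to 30320 CPM in wild-type and 21961 to 33347 CPM in Tbx20EH1Mut hearts). Some marker sums differed by genotype without overlap, the endocardial and endothelial sums by a narrow gap. Of all genes tested, 14.0% were called higher and 15.3% lower, and 30.5% did not overlap. The sums were not recomputed under other scalings. Endocardial and endothelial markers summed to 642 to 827 CPM in wild-type and 833 to 913 CPM in Tbx20EH1Mut libraries (3 of 8 called higher), second heart field markers to 34.1 to 61.0 and 189 to 343 CPM (3 of 4 called higher), erythroid markers to 1071 to 2739 and 178 to 585 CPM (4 of 4 called lower), and white blood cell markers to 8.33 to 14.4 and 4.01 to 5.88 CPM (1 of 2 tested called lower). Foregut epithelium markers summed to 1.02 to 40.8 and 28.2 to 158 CPM (3 of 7 called higher), with overlap. Proepicardium and epicardium markers summed to 37.6 to 112 and 101 to 125 CPM (1 of 4 called higher). Cushion mesenchyme markers summed to 113 to 229.6 and 184 to 206 CPM (2 of 6 called higher and 1 lower). These last lists overlapped through wild-type replicate 1 (112 and 229.6 CPM). The other wild-type libraries lay at 58.0 CPM or below and at 131 CPM or below. No marker in these lists was at 0 in every library. Their part in the results below was not tested, and in whole-heart RNA fewer cells of a type and less RNA per cell cannot be told apart.

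Hapln1 was the member that passed the test, and of the 9 genes 4 had a positive and 5 a negative log2 fold change. Hapln1 fell to 0.482 of its wild-type level in Tbx20EH1Mut hearts, while Vcan, its partner in the matrix and its neighbour on the chromosome, did not pass the test. Of the 9 genes, 0 were called higher and 1 was called lower by edgeR's quasi-likelihood test, where 14.0% of all genes tested were called higher and 15.3% were called lower (29.3% in all). At an unadjusted p of at most 0.05, 1 member was higher and 3 were lower, where 43.1% of all genes tested passed this mark (21.1% higher and 22.0% lower). DESeq2 called 1 member higher and 2 lower, and 17.6% and 19.2% of all genes. With limma-voom 0 members were called higher and 1 lower, and 15.1% and 15.3% of all genes. The median log2 fold change was −0.22 over the 9 genes and 0.00477 over all genes tested. The libraries of the genotypes did not overlap for 2 of the 9 genes, Hapln1 and Adamts1, against 30.5% of all genes tested.

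**Figure D1:**
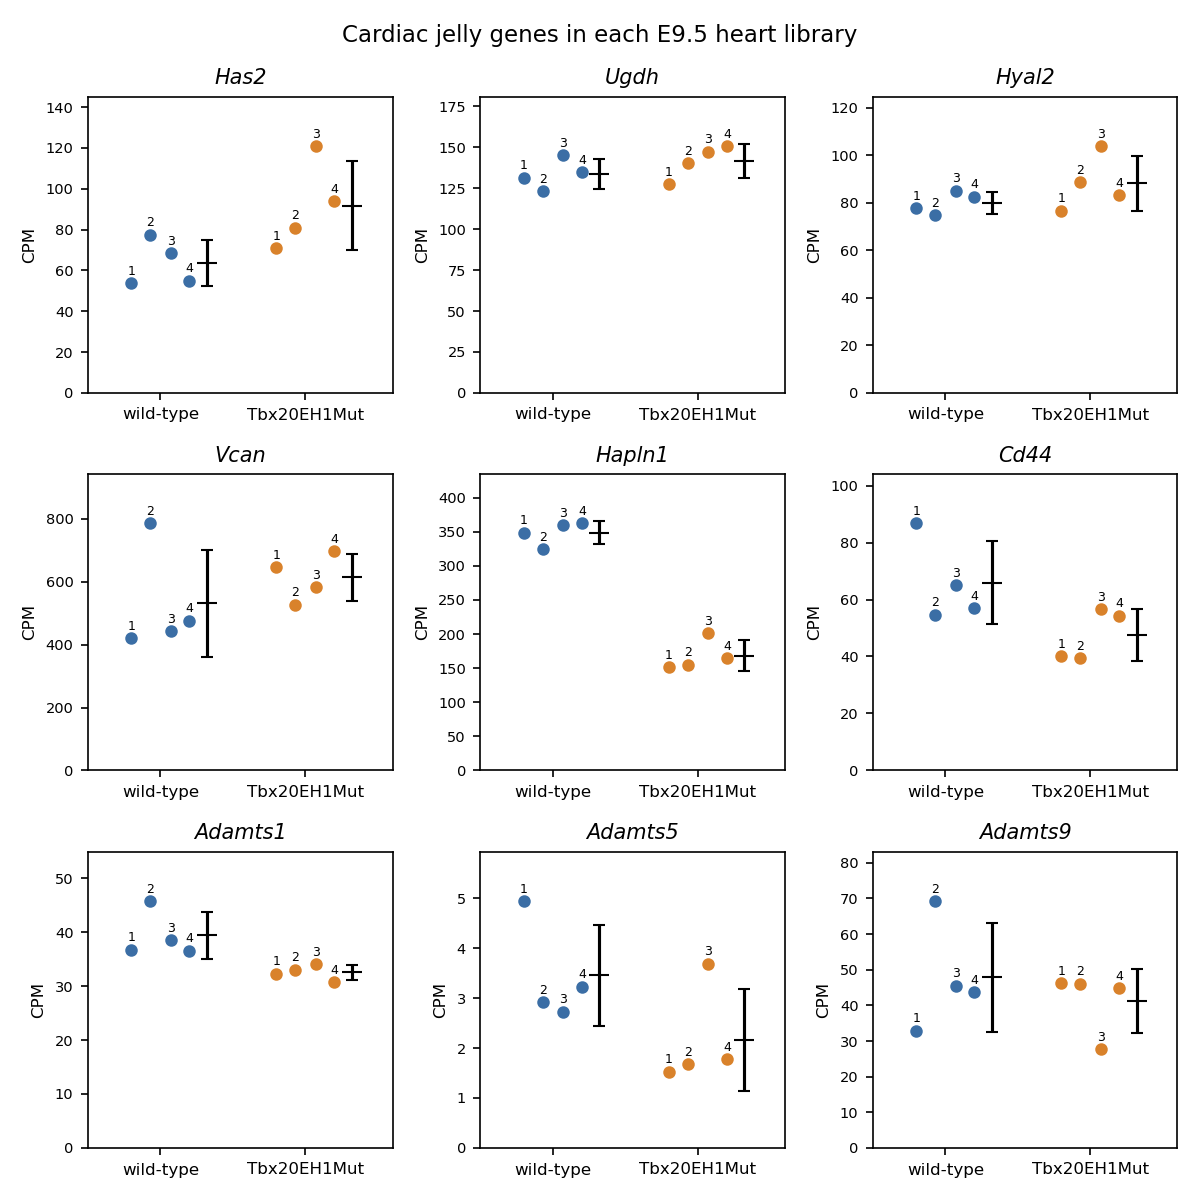
Level of each of the 9 cardiac jelly genes in every library, in CPM on an axis from 0, with wild-type and Tbx20EH1Mut libraries side by side and the mean and SD of each genotype. The genotypes separate for Hapln1, where wild-type libraries lie at 324.5 CPM or above and Tbx20EH1Mut libraries at 201 CPM or below, and narrowly for Adamts1.

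In wild-type hearts the message for the link protein was the most abundant of the 9 when counts were set against exon length. Hapln1 had a mean level of 69.0 CPM per kb of exon, above that of 95.2% of genes tested, followed by Vcan at 36.7, Hyal2 at 24.3, Ugdh at 19.8, Has2 at 15.0, Cd44 at 9.72, Adamts1 at 7.44, Adamts9 at 3.18 and Adamts5 at 0.427 CPM per kb. In this order the ranges over libraries overlapped between Ugdh and Has2, between Has2 and Cd44 and between Cd44 and Adamts1, and the other neighbouring pairs did not overlap. Among the proteases, the Adamts5 message lay above that of 18.1% of genes tested, with 2.73 to 4.95 CPM in wild-type libraries. In Tbx20EH1Mut hearts 2 neighbouring pairs changed places. Vcan averaged 42.4 and Hapln1 33.3 CPM per kb, with overlapping ranges (36.4 to 48.3 for Vcan and 30.1 to 39.8 for Hapln1), and the mean of Has2 (21.6 CPM per kb, range 16.7 to 28.5) passed that of Ugdh, whose range of 18.9 to 22.3 lay within that of Has2.

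Hapln1 and Vcan lie next to each other on chromosome 13 in GRCm38, by the coordinates of the deposited tables. Hapln1 (ENSMUSG00000021613) spans chr13:89540636-89611832 on the plus strand, Vcan (ENSMUSG00000021614) spans chr13:89655312-89742509 on the minus strand, and the 43479 bases between them hold 0 annotated genes. The stretches of 250 bases upstream of their RefSeq start sites are shown because these neighbouring genes gave different genotype contrasts. They are RefSeq sequence of GRCm38.p6, read 5′ to 3′ on the strand of each gene, with each CpG in capitals. The Hapln1 stretch is chr13:89540386-89540635 on the plus strand and the Vcan stretch is chr13:89742513-89742762 on the minus strand.
Hapln1: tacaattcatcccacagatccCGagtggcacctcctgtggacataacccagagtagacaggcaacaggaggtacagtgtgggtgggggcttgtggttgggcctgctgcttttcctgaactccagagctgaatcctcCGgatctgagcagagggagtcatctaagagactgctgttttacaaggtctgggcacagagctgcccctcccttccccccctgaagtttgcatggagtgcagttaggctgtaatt
Vcan: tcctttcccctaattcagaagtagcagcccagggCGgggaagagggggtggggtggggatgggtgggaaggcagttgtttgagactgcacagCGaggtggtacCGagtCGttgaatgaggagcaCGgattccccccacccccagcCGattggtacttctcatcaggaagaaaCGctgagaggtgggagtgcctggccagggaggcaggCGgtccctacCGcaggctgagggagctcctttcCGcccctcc
The Hapln1 stretch holds 2 CpG and 54.4% G and C, and the Vcan stretch holds 10 CpG and 62.4% G and C, where the median over all promoters of the table is 6 CpG and 52.4%. The T-box core AGGTGT, searched on both strands (ACACCT on the other), occurred in 0 of the 7 members with a promoter in the table, from 250 bases before to 50 bases after the start. It occurs in 13.7% of all 32851 promoters of this length, and its absence says only that these letters are not in these windows.

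Hapln1 was at 349, 324.5, 360 and 362 CPM in the wild-type libraries (replicates 1 to 4, in this order throughout) and at 152, 155, 201 and 165 CPM in the Tbx20EH1Mut libraries. Every mutant library lay below every wild-type library, and the spread within each genotype was small against the gap (349 ± 17.3 and 168 ± 22.6 CPM, SD, n = 4 each). The log2 fold change was −1.05 ± 0.120 (SE, 95% interval −1.32 to −0.79), with an adjusted p of 3.78e-04 in the quasi-likelihood test of edgeR with Benjamini-Hochberg adjustment. The exact two-sided permutation test gave p = 0.0286, the smallest that 4 libraries against 4 can give.

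Vcan, the large chondroitin sulfate proteoglycan of the jelly, was not called. It was at 421, 785, 442 and 476 CPM in the wild-type libraries and at 647, 527, 583 and 698 CPM in the Tbx20EH1Mut libraries. The 4 mutant libraries lay above 3 of the wild-type libraries and below wild-type replicate 2, which stood apart from its group. With all libraries the log2 fold change was 0.21 ± 0.203 (SE, 95% interval −0.24 to 0.66; adjusted p = 0.455 in edgeR's quasi-likelihood test). Without wild-type replicate 2 it was 0.47, with an adjusted p of 0.0254 in the same edgeR test, so that this library decides whether Vcan is called higher.

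The proportion of versican to link protein message was higher in every mutant library. The ratio of Vcan to Hapln1, each per kb of exon, was 0.422, 0.846, 0.429 and 0.459 in the wild-type libraries and 1.49, 1.19, 1.01 and 1.48 in the Tbx20EH1Mut libraries. The groups did not overlap, also with the high Vcan level of wild-type replicate 2, and the mean ratio was 2.40-fold higher in mutant hearts (0.539 ± 0.205 and 1.29 ± 0.233, SD, n = 4 each; exact two-sided permutation p = 0.0286). Without mutant replicate 1 or 4 the ratio was 2.28-fold higher and the exact permutation p was 0.0571. The ratio was chosen after the levels had been seen. Being a ratio within each library, it does not depend on how libraries were scaled.

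**Figure D2:**
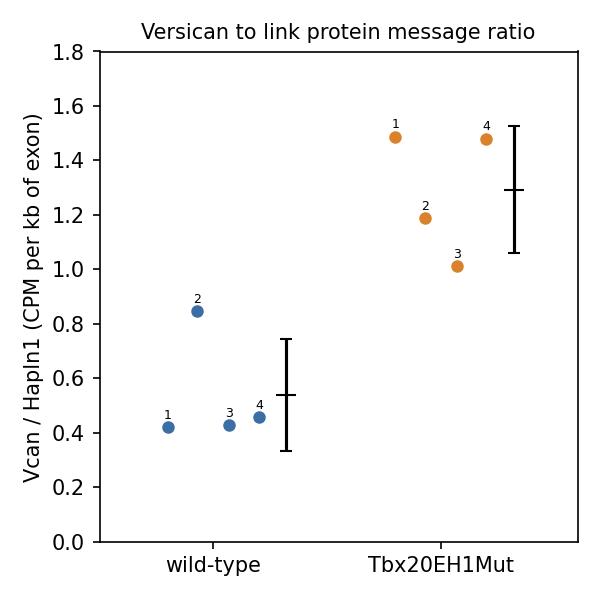
Ratio of the Vcan level to the Hapln1 level in each library, both in CPM per kb of exon, with the mean and SD of each genotype on an axis from 0. The wild-type libraries lie between 0.422 and 0.846 and the Tbx20EH1Mut libraries between 1.01 and 1.49.

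For hyaluronan synthesis, neither the synthase nor the precursor enzyme passed the test, and the synthase came close to the threshold. Has2 (ENSMUSG00000022367, chr15:56665627-56694539, minus strand), the main hyaluronan synthase of the embryonic heart, was at 53.6, 77.5, 68.4 and 54.9 CPM in the wild-type libraries and at 70.9, 80.9, 121 and 94.0 CPM in the Tbx20EH1Mut libraries. Mutant replicates 2, 3 and 4 lay above all wild-type libraries and mutant replicate 1 lay within their range. The log2 fold change was 0.53 ± 0.182 (SE, 95% interval 0.12 to 0.93), with an adjusted p of 0.0528 in edgeR's quasi-likelihood test and an exact permutation p of 0.0571. The call was gained without wild-type replicate 2 (log2 fold change 0.65, adjusted p = 0.0309 in edgeR's test) and without mutant replicate 1 (0.64 and 0.0339), and also with DESeq2, upper-quartile scaling or a minimum of 10 counts in every library. The antisense gene Has2os shares 182 exon bases with Has2, or 4.30% of its 4237, and held 571 counts over the 8 libraries against 24722 for Has2, so that reads in the shared stretch may be split between them.

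Ugdh (ENSMUSG00000029201, chr5:65413221-65435949, minus strand) makes the UDP-glucuronic acid used for hyaluronan and for chondroitin sulfate. It ran from 123 to 145 CPM in wild-type hearts and from 127 to 151 CPM in Tbx20EH1Mut hearts, with the groups mixed (log2 fold change 0.08 ± 0.103 SE, 95% interval −0.15 to 0.31). The interval leaves room for a change of up to 0.31 on the log2 scale. The ratio of Has2 to Ugdh per kb averaged 0.763 and 1.03 and did not separate the genotypes (exact permutation p = 0.114).

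At the cell surface, neither the receptor nor the hyaluronidase passed the test. Cd44 (ENSMUSG00000005087, chr2:102811141-102901665, minus strand), a transmembrane receptor that binds hyaluronan, was at 86.7, 54.6, 65.0 and 57.1 CPM in the wild-type libraries and at 40.0, 39.4, 56.7 and 54.3 CPM in the Tbx20EH1Mut libraries. Mutant replicates 1, 2 and 4 lay below all wild-type libraries, replicate 4 narrowly, and mutant replicate 3 lay within the wild-type range. Its log2 fold change of −0.47 ± 0.180 (SE, 95% interval −0.87 to −0.07) had an adjusted p of 0.0742 in edgeR's quasi-likelihood test, and 0.0303 when libraries were scaled by their size alone. With upper-quartile scaling the adjusted p was 0.146 in edgeR's test, and no fit with 1 library left out called it. Hyal2 (ENSMUSG00000010047, chr9:107567945-107572779, plus strand), a membrane-anchored hyaluronidase that cuts long chains, ran from 74.9 to 85.1 CPM in wild-type and from 76.7 to 104 CPM in Tbx20EH1Mut hearts. Its groups overlapped, and the log2 fold change was 0.14 ± 0.115 (SE, 95% interval −0.12 to 0.39).

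The versican proteases had lower means in Tbx20EH1Mut hearts, none of them past the threshold. Adamts1 (ENSMUSG00000022893, chr16:85793827-85803113, minus strand) was at 36.8, 45.8, 38.6 and 36.6 CPM in the wild-type libraries and at 32.3, 33.1, 34.0 and 30.7 CPM in the Tbx20EH1Mut libraries. All mutant libraries lay below all wild-type libraries, by a small margin. The log2 fold change was −0.28 ± 0.108 (SE, 95% interval −0.52 to −0.04), with an adjusted p of 0.0762 in edgeR's quasi-likelihood test, an adjusted p of 0.0426 in DESeq2 and an exact permutation p of 0.0286. Upper-quartile scaling gave an adjusted p of 0.159 in edgeR's test, and no fit with 1 library left out called it.

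Adamts5 (ENSMUSG00000022894, chr16:85858170-85901125, minus strand) lies 55056 bases from Adamts1 with 0 annotated genes between them. It was at 4.95, 2.91, 2.73 and 3.23 CPM in the wild-type libraries and at 1.53, 1.67, 3.69 and 1.78 CPM in the Tbx20EH1Mut libraries. Mutant replicate 3 lay within the wild-type range and the other mutant libraries lay below it. The log2 fold change was −0.67 ± 0.337 (SE; adjusted p = 0.153 in edgeR's quasi-likelihood test), and without mutant replicate 3 it was −1.05, with an adjusted p of 0.0249 in the same edgeR test. Every other fit left it uncalled, with −0.46 without wild-type replicate 1 (adjusted p = 0.307 in edgeR's test).

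Adamts9 (ENSMUSG00000030022, chr6:92772699-92943492, minus strand) showed no direction that held. It was at 32.9, 69.3, 45.5 and 43.7 CPM in the wild-type libraries and at 46.2, 46.1, 27.7 and 44.8 CPM in the Tbx20EH1Mut libraries. The highest value was wild-type replicate 2 and the lowest was mutant replicate 3, and the remaining libraries were mixed. The log2 fold change was −0.22 ± 0.233 (SE, 95% interval −0.73 to 0.30) and was 0.03 without wild-type replicate 2. The opposite-strand genes A730049H05Rik and Gm15737 share 1381 (9.18%) and 424 (2.82%) of its exon bases and held 104 and 151 counts, against 14877 for Adamts9.

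**Figure D3:**
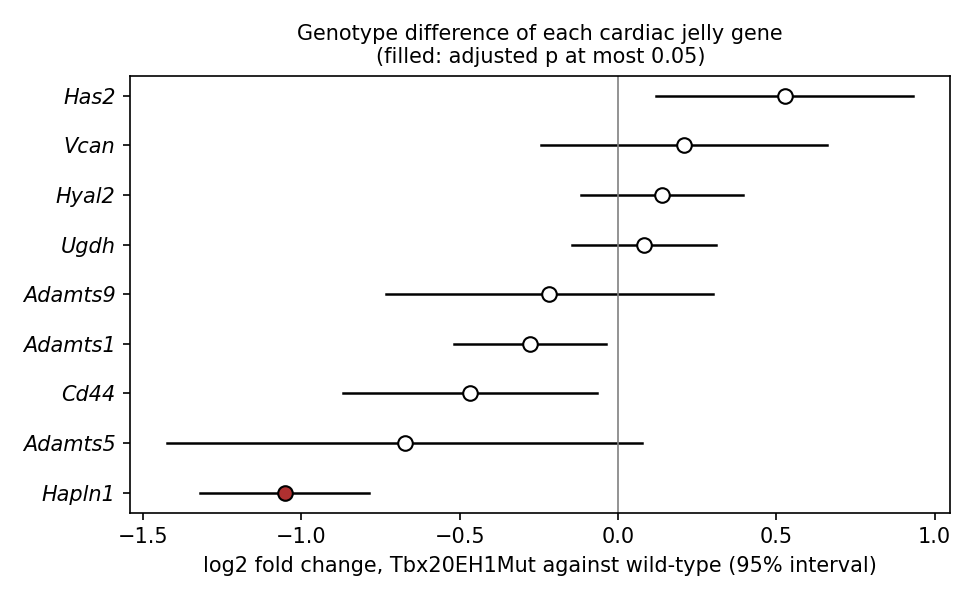
Log2 fold change of each cardiac jelly gene in Tbx20EH1Mut against wild-type hearts, with its 95% interval, on a log2 axis where 0 is no difference; filled points passed an adjusted p of 0.05. Hapln1, at −1.05, is the filled point, and the intervals of Has2, Cd44 and Adamts1 lie to one side of 0 without passing the adjusted threshold.

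Across the 8 libraries, Hapln1, Cd44 and Adamts5 varied alike, with Pearson r on log2 CPM of 0.756 for Hapln1 and Cd44, 0.755 for Hapln1 and Adamts5 and 0.865 for Cd44 and Adamts5 (Spearman rho 0.857, 0.690 and 0.810). Hapln1 also went with Adamts1 (r = 0.767, rho = 0.714) and Ugdh with Hyal2 (r = 0.735, rho = 0.833). The lowest Pearson r was that of Hyal2 and Adamts9 (−0.665) and the lowest Spearman rho that of Adamts5 and Adamts9 (−0.714). Of the genes that averaged 5 CPM or more over the 8 libraries, the ones most like Has2 were Tcaf1 (r = 0.981), Pirt (0.977) and Myrfl (0.975), which had a mean of 3.67 CPM in wild-type and 6.86 CPM in Tbx20EH1Mut hearts and passed this limit through the latter. For Vcan they were Slit3 (r = 0.982), Cacna1c (0.974) and Rnf157 (0.973). Predicted-gene names were left out of both rankings, which were drawn from 10947 genes and picked for the highest r. These values describe 8 libraries of 2 genotypes, which share their genotype difference and their scaling.

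A wider list of 60 other genes of hyaluronan and versican turnover covers the rest of the pathway. Of these, 52 were tested, 2 were called higher and 12 lower, and 38 were not called, with a median log2 fold change of −0.20. The share called, 26.9% of those tested, was close to the 29.3% of all genes tested. By direction, 14.0% of all genes tested were called higher and 15.3% lower. The 2 called higher were hyaluronan receptors, and this count was 4 with upper-quartile scaling and 5 with DESeq2.

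Of the other hyaluronan synthases and the enzymes that make or use hyaluronan precursors, 4 of 8 tested were called by edgeR's quasi-likelihood test. All were lower, where 15.3% of all genes tested were called lower. Gfpt2, an enzyme of the rate-limiting step toward UDP-N-acetylglucosamine, was at 31.7, 62.2, 50.5 and 42.5 CPM in the wild-type libraries and at 15.7, 13.4, 10.7 and 14.6 CPM in the Tbx20EH1Mut libraries. No mutant library reached the wild-type range (log2 fold change −1.78 ± 0.207 SE; adjusted p = 4.26e-04 in edgeR's test). Pgm3, a later enzyme of the same route, fell from 23.8 ± 3.09 to 16.1 ± 1.24 CPM (SD; adjusted p = 0.00993 in edgeR's test). Uxs1, which turns UDP-glucuronic acid into UDP-xylose for the linker of chondroitin sulfate chains, fell from 27.8 ± 3.29 to 16.9 ± 1.36 CPM (SD; adjusted p = 0.00301 in edgeR's test). Ugp2, which makes the UDP-glucose used by Ugdh, was at 185 ± 33.1 and 178 ± 33.3 CPM (SD) and was not called. The fourth called gene was Has3, a synthase near the limit of the filter (0.966 and 0.325 CPM), named here after its values were seen. Its adjusted p of 0.0460 in edgeR's test rose above the threshold under upper-quartile or library-size scaling, without the filter, and without any 1 library except mutant replicate 1, with a log2 fold change of −1.55 with all libraries and −1.73 to −1.25 in these fits.

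Among the other hyaluronan receptors, 2 of 5 were called higher and 1 lower, against 14.0% and 15.3% of all genes tested. Lyve1, a receptor of lymphatic and some embryonic endothelium and of macrophages, was at 4.67, 2.65, 3.27 and 5.52 CPM in the wild-type libraries and at 6.84, 8.71, 18.5 and 11.2 CPM in the Tbx20EH1Mut libraries. Stab2, an endocytic receptor of sinusoidal and embryonic endothelium, rose from 0.262 to 0.692 CPM to 1.09 to 2.63 CPM. Its mean was 0.407 CPM in wild-type and 2.02 CPM in Tbx20EH1Mut hearts, and it passed the 1 CPM limit for naming through the latter. Neither Lyve1 nor Stab2 overlapped between genotypes, with log2 fold changes of 1.49 ± 0.336 and 2.30 ± 0.424 (SE; adjusted p = 0.0101 and 0.00392 in edgeR's quasi-likelihood test). The summed endocardial and endothelial markers were also higher in the mutant libraries, by a narrow gap as given above, and their part in these receptors was not tested. Hmmr, a hyaluronan-binding protein of the mitotic spindle, fell from 84.7 ± 8.07 to 53.5 ± 14.0 CPM (SD; adjusted p = 0.0176 in edgeR's test), and its call was lost without mutant replicate 4 (adjusted p = 0.0563 in edgeR's test), where the log2 fold change was −0.64 against −0.66 with all libraries. Stab1, the most abundant receptor not called, was at 65.1 ± 16.7 and 96.5 ± 18.7 CPM (SD), with an adjusted p of 0.0525 in edgeR's test, and passed the threshold without wild-type replicate 2 or mutant replicate 3 and in 5 of 8 alternative fits of all libraries (adjusted p = 0.0240 to 0.0485).

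Some genes of the wider list attach, extend or modify chondroitin sulfate, the side chain that versican carries. Of these, 2 of 20 tested were called by edgeR's quasi-likelihood test, both lower, where 29.3% of all genes tested were called. Both belong to chain polymerisation. Chpf fell from 56.0 ± 4.18 to 37.9 ± 1.58 CPM and Chpf2 from 24.5 ± 4.25 to 14.8 ± 2.92 CPM (SD, n = 4 each), each without overlap (adjusted p = 0.00297 and 0.0150 in edgeR's test). Chsy1, the most abundant gene of this group not called, was at 108 ± 5.56 and 105 ± 17.8 CPM (SD).

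Of the versican partners and inhibitor, 2 of 5 were called lower, and of the other versican proteases 1 of 4, where 15.3% of all genes tested were called lower. Fbln1, a matrix protein that binds versican and acts as a cofactor of Adamts1, was at 188, 253, 225 and 217 CPM in the wild-type libraries and at 172, 144, 138 and 138.1 CPM in the Tbx20EH1Mut libraries. Fbln2, a related versican-binding protein of the cushions, fell from a range of 12.6 to 29.7 CPM to a range of 3.75 to 8.82 CPM. Both separated the genotypes (log2 fold changes −0.58 and −1.51; adjusted p = 0.00884 and 0.00624 in edgeR's quasi-likelihood test). Fn1, fibronectin, had the highest level of this group and was not called (711 ± 309 and 433.5 ± 76.1 CPM, SD), with 1169 CPM in wild-type replicate 2, and had an adjusted p of 0.0628 in edgeR's test. Its log2 fold change was −0.71, and −0.35 without wild-type replicate 2 (adjusted p = 0.122 in edgeR's test). It passed the threshold without wild-type replicate 1 (0.0350), without the filter (0.0469) and in DESeq2 (0.0231). Among the 4 other versican proteases, Adamts15 fell from 9.20 ± 1.78 to 4.24 ± 1.23 CPM (SD; adjusted p = 0.00793 in edgeR's test) and Adamts4 was at 2.37 ± 0.705 and 1.88 ± 0.436 CPM.

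Of the other link proteins and hyaluronan-binding proteoglycans, 6 of 12 were tested and 1 was called, or 16.7% of those tested against 29.3% of all genes tested. This gene was Hapln4, a link protein named here after its values were seen, which fell from 1.66 ± 0.308 to 0.258 ± 0.132 CPM (SD; adjusted p = 0.00244 in edgeR's quasi-likelihood test). Hapln3 was at 18.9 ± 2.33 and 16.3 ± 3.13 CPM (SD) and was not called. Of the other hyaluronan breakdown genes, 1 of 4 was called lower, where 15.3% of all genes tested were, and it was Cemip, also named after its values were seen (1.02 ± 0.900 and 0.220 ± 0.0468 CPM), with 2.37 CPM in wild-type replicate 1. Its log2 fold change was −2.19, and −1.38 without that library. Its call was lost without mutant replicate 1 or 4, with limma-voom and with the replicate number as a block (adjusted p = 0.0521 to 0.0613). The log2 fold change was −2.29 to −1.74 in these fits. Like Hapln4, Cemip passed the filter on low counts through the wild-type libraries, with mutant libraries at 0.155 to 0.265 CPM. Cemip2, a cell-surface protein of hyaluronan breakdown, was at 193 ± 11.4 and 217 ± 31.6 CPM (SD) and was not called.

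**Figure D4:**
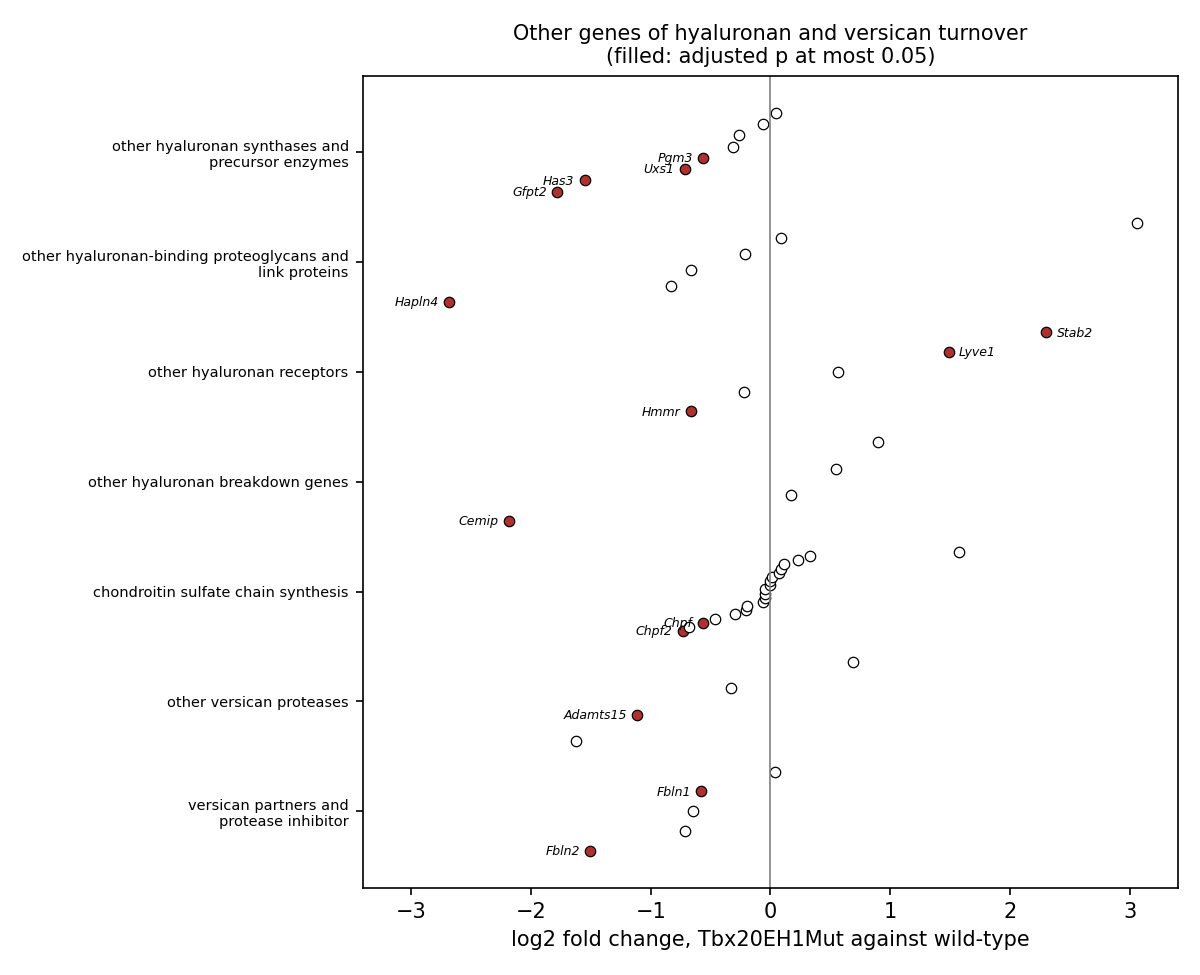
Log2 fold change in Tbx20EH1Mut against wild-type hearts of the 52 tested genes of the wider hyaluronan and versican list, grouped by role, on a log2 axis where 0 is no difference; filled and named points passed an adjusted p of 0.05. Lyve1 and Stab2 are the called points above 0, and the other 12 called genes lie below 0.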

How the data were processed

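The authors deposited a table of raw gene counts for each of the 8 libraries, made from paired-end poly-A RNA-seq; the submitters' processing notes name Trimmomatic 0.36, STAR 2.5.2b and GRCm38 (mm10). The counting tool and its strand setting are not given in the sources used here, so reads of overlapping genes cannot be assigned with certainty. Exon lengths and coordinates are those of the deposited tables, symbols were found for 48970 of 49315 Ensembl identifiers, and promoters are RefSeq sequence on GRCm38.p6 (7 of 9 members, without Has2 and Adamts5).

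Counts were filtered with filterByExpr, scaled by TMM and tested over all 17163 genes with edgeR 4.0.16 (R 4.3.3) by the quasi-likelihood test, wild-type against Tbx20EH1Mut, with Benjamini-Hochberg adjustment. Single values were compared by an exact two-sided permutation test over the 70 arrangements of 4 against 4 libraries. Pairs of libraries within a genotype all differed by more than sampling noise, and replicates are separate pools of hearts per the study's methods. The common dispersion was 0.0707, and total counts per library ranged from 33359322 to 49523086.

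Named are the 9 genes, Tbx20, in each role of the wider list up to 3 called genes of at least 1 CPM with the largest change and the most abundant gene not called, and the 3 genes most like Has2 and Vcan, with predicted-gene names left out. A gene named outside this rule is marked. The members and lists were chosen with earlier results of these data known, and the ratios were chosen after the data had been seen. Alternatives were other scalings (RLE, upper quartile, library size alone), DESeq2 1.42.0, limma-voom (limma 3.58.1), no filter, a minimum of 10 counts in every library, a fold threshold, a replicate block and leaving out each library.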

Additional observations from a re-analysis of the deposited data

Results flagged for a closer look

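In 80 groups of 4 libraries that were checked, 5 held a library far from the other 3 of its genotype, by the gap to its nearest neighbour as a share of the group's range; chance alone marks about 1 in 20 groups. Vcan was at 785 CPM in wild-type replicate 2, with a gap of 0.849 of the range. Adamts5 was at 3.69 CPM in Tbx20EH1Mut replicate 3, with a gap of 0.885, and Adamts9 was at 27.7 CPM in the same library, with a gap of 0.924. Cemip was at 2.37 CPM in wild-type replicate 1, with a gap of 0.895. The summed cushion mesenchyme markers were at 229.6 CPM in wild-type replicate 1, with a gap of 0.845. Over the groups they ran from 113 to 229.6 CPM in wild-type and from 184 to 206 CPM in Tbx20EH1Mut hearts. Without that library, left out after its value was seen, the wild-type sums ran from 113 to 131 CPM, below every mutant library. With all libraries the exact permutation p was 0.143, and of the 6 markers 2 were called higher and 1 lower. The paper could not identify endocardial cushions in the mutant hearts.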

How the results depend on the processing

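The fall of Hapln1 kept its direction and its call under all 8 other whole-set fits and when each library was left out (adjusted p = 0.00315 or lower in edgeR with 1 library left out). Over all genes, 5024 were called, 1859 of them with a log2 fold change of at least 1 in size, and leaving out 1 library gave 3001 to 6586, the lowest counts coming without wild-type replicate 4 (3001), mutant replicate 4 (3028) or wild-type replicate 3 (3061). Upper-quartile scaling moved the split from 2406 higher and 2618 lower to 2859 and 1997. It called 1 member higher, as did DESeq2 and a minimum of 10 counts in every library, and leaving out 1 library gave 0 to 2; the member was Has2 in these 3 fits (log2 fold change 0.62, 0.53 and 0.53; adjusted p = 0.0238, 0.0280 and 0.0424), with 0.37 to 0.65 when 1 library was left out. Members called lower numbered 2 with library size alone (Cd44, −0.54) and with DESeq2 (Adamts1, −0.28), and 1 to 2 when 1 library was left out. Leaving out 1 library gave 0.11 to 0.47 for Vcan, −1.05 to −0.46 for Adamts5, −0.36 to 0.03 for Adamts9 (0.03 without wild-type replicate 2), −0.56 to −0.31 for Cd44 and −0.32 to −0.19 for Adamts1. Of the wider list, 8 of 14 calls were at least 1 in size on the log2 scale (6 of the 12 lower), and the genes called higher numbered 4 with upper-quartile scaling, 5 with DESeq2 and 2 to 4 when 1 library was left out. Those called lower numbered 9 with a minimum of 10 counts in every library, where Has3, Hapln4 and Cemip were not tested, and 9 (without mutant replicate 4) to 14 (without wild-type replicate 1) when 1 library was left out. Ugp2 and Chsy1 changed sign with upper-quartile scaling (0.02 and 0.04) and ranged from −0.16 to 0.06 and −0.12 to 0.06 when 1 library was left out, with 0.03 and 0.06 for Ugp2 without wild-type replicate 1 or mutant replicate 1, and 0.00 and 0.06 for Chsy1 without wild-type replicate 2 or mutant replicate 1. The Vcan to Hapln1 ratio was 2.23-fold to 2.96-fold higher when 1 library was left out, an alternative added after seeing the data, where 4 against 3 libraries give an exact p of 0.0286 or, without mutant replicate 1 or 4 (2.28-fold each), 0.0571. The call of Tbx20 was lost with upper-quartile scaling (−0.38, adjusted p = 0.0608). The cause of these shifts was not tested.

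The deviations of samples with the same replicate number from their genotype means had correlations of −0.354, 0.38, 0.077 and 0.075. Pairs with different numbers ran from −0.497 to 0.505. These values cannot show whether the numbers pair libraries, and the labels do not say what the numbers mean. With the replicate number as a block, 3945 genes were called, 0 members higher and 1 lower, and no member's call changed. Among the 9 genes Adamts5 had the lowest counts, at 1.53 to 4.95 CPM. RNA counts do not measure hyaluronan or versican protein.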
